A study of Mus musculus with 24 samples.

Results

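Macrophages sorted from APC-KO tumor 2 were compared with those sorted from APC-KO tumor 1. The members were chosen by their sample labels and not by any measured value: the 6 libraries of each tumor, 12 of the 24 libraries of the series. Both tumors were orthotopic MC38 tumors, a mouse colon carcinoma line, whose cancer cells lacked Apc, and both grew in C57BL/6J mice. APC is the tumor suppressor that restrains Wnt signalling, and the host macrophages were not targeted. No further treatment, time or age is given in the labels. After digestion with Liberase and red cell lysis, live cells positive for CD45, CD11b and F4/80 were sorted and libraries were made from their total RNA with an ultra low input kit (Illumina Nextera XT). Each side was 1 tumor, and the labels describe its 6 libraries as replicates of one sample. Every p-value below therefore measures the spread between libraries of a tumor, which may be technical, and not the spread between tumors or mice.

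Tumor-associated macrophages arise from blood monocytes and from macrophages resident in the tissue, and they take up states between inflammatory and tissue-supporting. In the inflammatory state NF-kB and interferon gamma drive cytokines, chemokines and nitric oxide synthase. Low oxygen stabilises HIF-1, which turns on glucose uptake, glycolysis and Arg1, while mature macrophages make complement C1q, apolipoprotein E and scavenger receptors.

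The libraries of tumor 1 held between 8895722 and 19328572 counts each, those of tumor 2 between 13464061 and 17196820. Loci that resemble a satellite repeat took 37.9% ± 0.420 of the counts in tumor 1 and 38.5% ± 0.756 in tumor 2 (SD, n = 6 libraries each; adjusted p = 0.127, exact two-sided permutation test over 4 shares); without tumor 2 library 3 the difference passed (0.913 percentage points, adjusted p = 0.0115). Receptor genes of smell held 0.811% ± 0.0199 of the counts in tumor 1 and 0.823% ± 0.0180 in tumor 2 (adjusted p = 0.284, same exact test). Their counts were used to set the background that reads outside expressed genes give. This takes the receptor genes as a group to be silent in these cells, which was not tested. Levels below are scaled CPM, that is CPM relative to the summed counts of 1597 genes that lay at 10 or more times the background expected from the receptor genes and at 10 CPM or more. These genes held 25.0% ± 0.797 of the counts in tumor 1 and 23.7% ± 0.146 in tumor 2 (adjusted p = 0.00433, the smallest p being 0.00216 before adjustment in this exact test).

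Within tumor 1, libraries 1 to 3 stood apart from libraries 4 to 6 on the first 2 principal components, which held 45.8% and 19.9% of the variance. Some genes differed widely among libraries of the same tumor. Cebpb, a transcription factor of myeloid cells, read 224 to 5685 (median 324) scaled CPM in tumor 1, with the top value in library 5, and 281 to 1904 (median 327) in tumor 2, with the top value in library 6. Klf2, a transcription factor of quiescent leukocytes, read 60.8, 54.4, 66.3, 293, 340.2 and 146 in tumor 1 libraries 1 to 6. Changes of such genes were not called (Cebpb -1.14 ± 0.72, SE on the log2 scale; Jund, an AP-1 subunit, -0.19 ± 0.53; Klf2 0.22 ± 0.41), and counts of called genes are also given without libraries 1 to 3 of tumor 1, a choice made after the data had been seen.

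**Figure D1:**
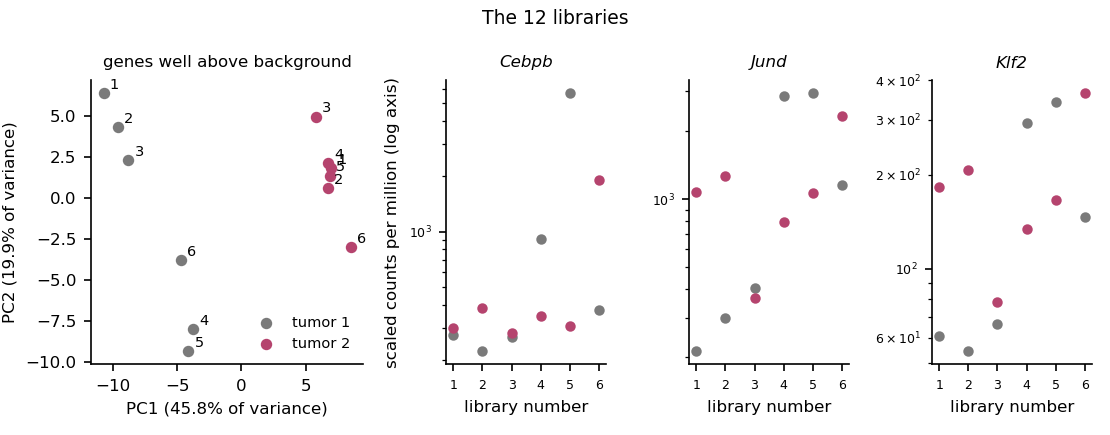
The 12 libraries on the first 2 principal components of 1597 genes well above background (left), and the levels of Cebpb, Jund and Klf2 by library number in scaled CPM on a log axis (right). Grey points are tumor 1 and red points tumor 2; the tumors separate on the first component, libraries 1 to 3 of tumor 1 lie apart from 4 to 6, and Cebpb reaches 5685 in library 5 of tumor 1.

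Of 41257 genes tested, 375 were higher in tumor 2 and 360 lower, 1.78% in all (0.909% and 0.873%; adjusted p under 0.05, edgeR). Among the 6399 genes at 3 or more times expected background and 10 CPM or more, 9.25% were called, 4.17% higher and 5.08% lower. Among the 1597 genes well above background 24.3% were called, 9.83% higher and 14.5% lower. Counts of called list members below stand against these shares. The median log2 change was 0.04 over all genes tested, 0.05 over the 6399 and 0.01 over the 1597. Of the 735 calls 51% were higher, against 39.7% with scaling over all genes (266 higher and 404 lower). Of the called genes 37 rose and 48 fell by 2-fold or more. Without libraries 1 to 3 of tumor 1, 367 were called higher and 274 lower, and 503 of the 735 calls remained. The largest falls among named genes were in Ccl5, Nos2, Saa3, Ppbp, C3, Inhba, Ero1l, Rhov, Lcn2, Cxcl3, Upp1 and Mmp8. Nkg7, Egr1, Fcrls, Gzmb, Cd8b1, Tnfsf9, Cbr2, Phgdh, Gpr84, Cavin3, Hist1h2an and Sparc had the largest rises under the same rule. This rule required that the libraries of the tumors not overlap, so their separation in these genes was fixed by the choice. Most other named genes were chosen as called genes with a small p or after their values were seen. Separation of their libraries, where given below, follows in large part from that choice. The share of all genes tested without overlap is not given.

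**Figure D2:**
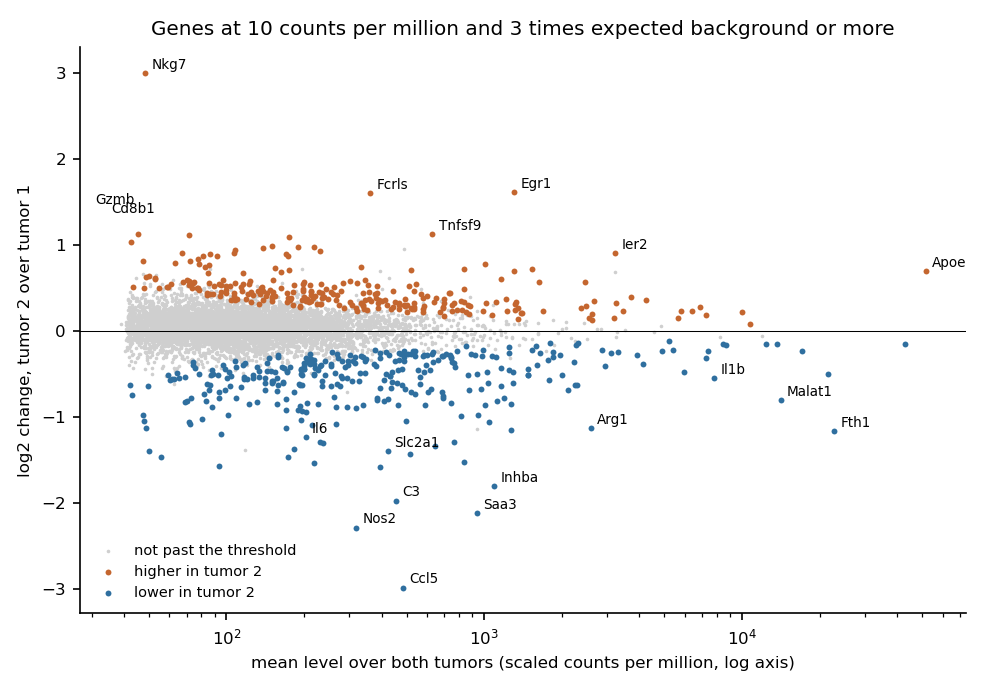
The log2 change of tumor 2 over tumor 1 (vertical axis) against the mean level over both tumors in scaled CPM (log axis) for 6399 genes at 3 or more times expected background. Called genes are orange where higher (4.17%) and blue where lower (5.08%) in tumor 2; Ccl5 lies lowest at -2.98 and Nkg7 highest at 3.00.

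None of the 3 genes behind the sort passed the test. Ptprc, which encodes CD45, read 472 to 636 (median 541) scaled CPM in tumor 1 and 565 to 594 (median 584) in tumor 2, a log2 change of 0.088 ± 0.066. It was called without libraries 1 to 3 of tumor 1 (0.24, adjusted p = 0.0338). Itgam, which encodes CD11b, read 284 to 461 (median 405) and 334 to 445 (median 405) (0.029 ± 0.10), and Adgre1, which encodes F4/80, 348 to 449 (median 375) and 378 to 473 (median 396) (0.087 ± 0.073). Neither was called, and their libraries overlapped between tumors. Csf1r, the receptor for the growth factor CSF1, rose from 852 to 981 (median 908) to 998 to 1102 (median 1086), by 0.23 ± 0.046 log2 units (adjusted p = 0.00631). Scaled over all genes it did not pass (0.20, adjusted p = 0.0783). Cd68, a lysosomal macrophage marker, changed by -0.027 ± 0.041 and was not called. Of 18 macrophage identity and sort genes, all at 3 or more times background, 4 rose and 2 fell. The other risers were Ctss, Mertk and Cd14. Cd14, a receptor for lipopolysaccharide, rose by 0.084 ± 0.017 and lost its call scaled over all genes (0.045, adjusted p = 0.788) and with expected background subtracted (adjusted p = 0.352). Of the list 2 rose and 2 fell scaled over all genes. Lyz2 and Fcgr1 fell by 0.15 ± 0.017 and 0.27 ± 0.046.

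Many inflammatory genes fell in tumor 2. Of 22 inflammatory cytokines and NF-kB targets 15 fell and 3 rose in tumor 2 (median -0.29; 13 fell and 3 rose without libraries 1 to 3 of tumor 1). Nos2, the inducible nitric oxide synthase (ENSMUSG00000020826, chromosome 11, 78920787 to 78960254 of GRCm38), stood at 468 to 558 (median 532) scaled CPM in tumor 1 and 98.1 to 117 (median 109) in tumor 2. Its log2 change was -2.28 ± 0.066 (adjusted p = 9.23e-15). Every tumor 2 library lay under every tumor 1 library, which the rule for the largest changes required. Il6, the cytokine interleukin 6, read 235 to 318 (median 291) in tumor 1 and 104 to 158 (median 112) in tumor 2, a fall of 1.23 ± 0.10. Il1b, the cytokine interleukin 1 beta, stood at 9148 to 9444 (median 9226) and 6114 to 6637 (median 6341) and fell by 0.55 ± 0.022. Neither Il6 nor Il1b overlapped between the tumors. Il6 was named after its values were seen and Il1b as a called member with a small p, which favours such separation. Ptgs2, the inducible cyclooxygenase, fell by 0.78 ± 0.041, Sod2, the mitochondrial superoxide dismutase, by 0.74 ± 0.053 and Acod1, the enzyme that makes itaconate, by 0.67 ± 0.065. Not all moved down. Tnf, the cytokine tumor necrosis factor, read 563 to 730.4 (median 627) in tumor 1 and 981 to 1084 (median 1035) in tumor 2 and rose by 0.72 ± 0.059 (adjusted p = 1.21e-07). Ccl4, a chemokine for lymphocytes and monocytes, rose by 0.35 ± 0.029, and Nfkbiz was the third that rose. With scaling over all genes 2 rather than 3 members rose.

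Chemokines, the secreted proteins that guide leukocytes, followed with 11 of 22 lower and 2 higher (median -0.26; 11 and 2 without libraries 1 to 3 of tumor 1). Ccl5, which attracts T cells and monocytes (ENSMUSG00000035042, chromosome 11, 83525778 to 83530518 of GRCm38), read 906, 888, 829, 878, 831 and 821 scaled CPM in tumor 1 libraries 1 to 6 and 109.6, 115, 93.5, 118, 113 and 103 in those of tumor 2. Its level was 7.89 times as high in tumor 1, the largest fall of any named gene (-2.98 ± 0.064, adjusted p = 7.61e-17). Cxcl3, a ligand of the neutrophil receptor CXCR2, read 1148 to 1408 (median 1216) in tumor 1 and 382 to 542 (median 422) in tumor 2. It fell by 1.52 ± 0.077, and its relatives Cxcl1 and Cxcl2 fell by 0.81 ± 0.041 and 0.47 ± 0.021. The libraries of the 2 tumors were apart for all 3, which for Cxcl3 the rule for the largest changes required. Among monocyte chemokines Ccl2 and Ccl7 fell by 0.24 ± 0.038 and 0.22 ± 0.032, and Ccl6 and Ccl9 by 0.60 ± 0.040 and 0.61 ± 0.060. Cxcl10, an interferon-induced ligand of CXCR3, rose by 0.39 ± 0.066 against this direction, from 444 to 548 (median 512) to 587 to 733 (median 658). Cxcl5, another ligand of CXCR2, stood at 2.72 times its expected background and was not called (-0.085 ± 0.21).

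Saa3, C3 and Inhba were among the largest falls. Saa3, a serum amyloid A protein that macrophages make in inflammation, read 1448 to 1598 (median 1516) scaled CPM in tumor 1 and 325 to 366 (median 347) in tumor 2 (-2.12 ± 0.045, adjusted p = 7.47e-17). C3, the central complement component, read 694 to 763 (median 728) and 154 to 221 (median 188) (-1.97 ± 0.078), so its level was 3.92 times as high in tumor 1. Inhba, which encodes the subunit of activin A, fell by 1.80 ± 0.054, from 1591 to 1818 (median 1694) to 439 to 550.2 (median 487). None of these 3 genes overlapped between the tumors, which the rule for the largest changes required. Of 25 complement and phagocytic receptor genes 6 fell and 6 rose (median 0.013; 4 fell and 6 rose without libraries 1 to 3 of tumor 1). The risers were the 3 C1q chains, Stab1, Gas6 and Mertk, and the other genes that fell were Clec4n, Cd36, Fcgr1, Fcgr3 and Itgb2. Itgb2 lost its call in 8 of 12 fits that each left out 1 library, with changes from -0.33 to -0.25 over these 12 fits.

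Markers of neutrophils, myeloid cells that also make Il1b and CXCR2 ligands, moved with the inflammatory genes. Of 21 neutrophil markers 9 fell and all calls were in this direction (median -0.45; 7 without libraries 1 to 3 of tumor 1). Summed over the list, the markers read 2081 to 2345 (median 2175) scaled CPM in tumor 1 and 1300.04 to 1396 (median 1347) in tumor 2, over an expected background of 259 and 265. S100a9 and S100a8, the subunits of calprotectin, read 234 to 296 (median 261) and 119 to 146 (median 133) in tumor 1 and 91.9 to 109 (median 102) and 47.5 to 71.3 (median 56.4) in tumor 2. They fell by 1.37 ± 0.076 and 1.20 ± 0.10. Lcn2, an iron-binding protein of neutrophil granules that macrophages also make, fell by 1.54 ± 0.10 and Mmp8, the neutrophil collagenase, by 1.46 ± 0.17. The defining neutrophil genes Ly6g and Cxcr2 lay at 1.27 and 1.44 times background, read 1.32 to 16.7 (median 6.19) and 19.5 to 38.2 (median 26.4) in tumor 1 and 0.990 to 9.90 (median 7.62) and 14.8 to 32.2 (median 21.5) in tumor 2, and were not called. Csf3r, the receptor for the growth factor G-CSF, changed by -0.35 ± 0.11 and was not called (adjusted p = 0.161); without tumor 1 library 3 it passed at -0.43, adjusted p = 0.0357. In bulk libraries fewer cells of a type and less RNA per cell cannot be told apart, and the part of neutrophils in the falls above was not tested.

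**Figure D3:**
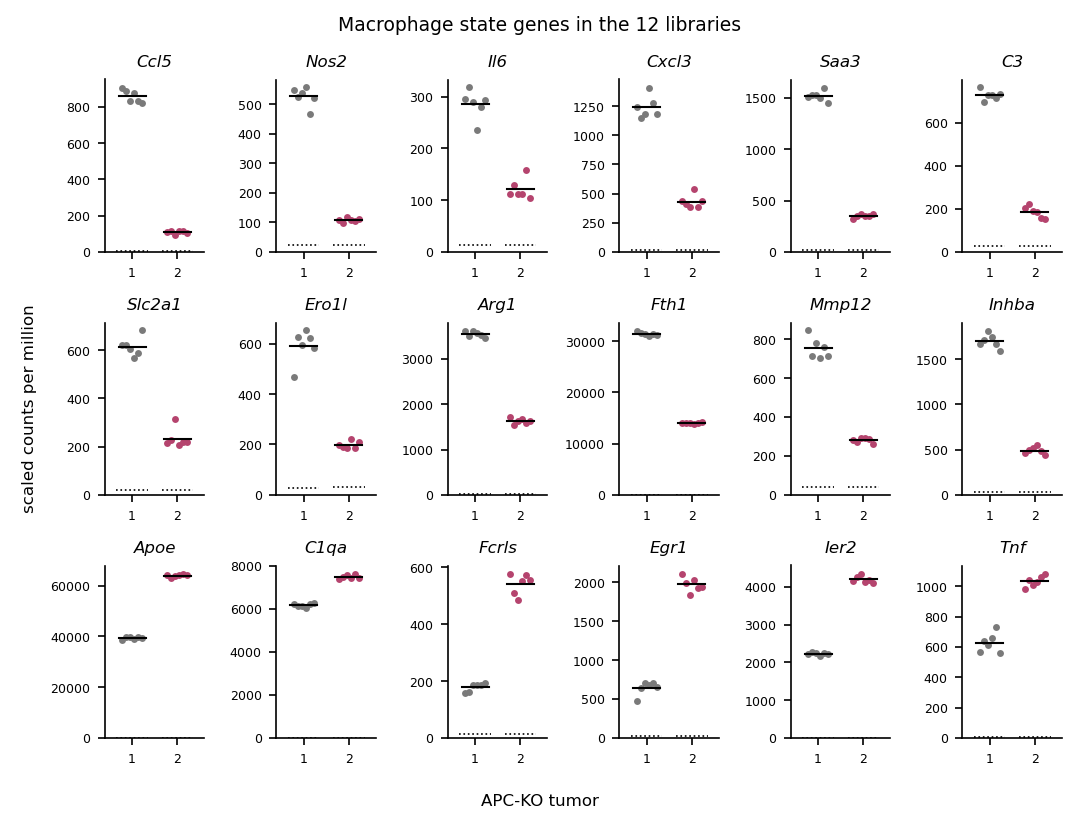
Levels of 18 macrophage state genes in scaled CPM (linear axes from 0) in the 6 libraries of tumor 1 (grey) and of tumor 2 (red); bars are means and dotted lines the expected background. The 12 genes of the upper rows fall in tumor 2 and the 6 of the lowest row rise. All 18 are called genes picked for display, so their separation between tumors reflects the choice.

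Most genes of glycolysis and the response to low oxygen fell. Of 27 genes of this list 20 fell in tumor 2 and all calls were in this direction (median -0.42, against 0.04 over all genes and 0.01 over those well above background; 18 without libraries 1 to 3 of tumor 1). Of all genes tested 0.873% were called lower, and 5.08% of the 6399 above background. The promoters of the 5 called members with the smallest p among those that hold the core of the hypoxia response element are shown, since this element is where HIF-1 is known to bind. Each is the 250 bases before the RefSeq start (GRCm38.p6), 5′ to 3′ on the gene's strand, with the letters ACGTG, or CACGT on the other strand, in capitals.
Slc2a1 (chr4:119108495-119108744, plus strand): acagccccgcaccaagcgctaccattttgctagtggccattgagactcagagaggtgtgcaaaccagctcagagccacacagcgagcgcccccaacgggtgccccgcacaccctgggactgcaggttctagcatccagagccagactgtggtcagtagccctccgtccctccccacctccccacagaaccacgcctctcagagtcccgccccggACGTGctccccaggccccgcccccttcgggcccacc
Slc16a3 (chr11:120948817-120949066, plus strand): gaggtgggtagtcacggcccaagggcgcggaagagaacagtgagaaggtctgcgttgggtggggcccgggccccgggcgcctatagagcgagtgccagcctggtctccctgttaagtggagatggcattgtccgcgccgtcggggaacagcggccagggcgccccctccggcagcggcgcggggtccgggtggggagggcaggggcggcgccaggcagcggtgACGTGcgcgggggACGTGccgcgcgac
Bnip3 (chr7:138909507-138909756, minus strand): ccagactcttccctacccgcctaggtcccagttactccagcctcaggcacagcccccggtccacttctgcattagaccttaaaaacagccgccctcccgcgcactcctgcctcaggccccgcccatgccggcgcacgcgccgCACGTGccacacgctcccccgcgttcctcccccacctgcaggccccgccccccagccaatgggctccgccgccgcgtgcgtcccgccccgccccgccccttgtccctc
Egln3 (chr12:54203875-54204124, minus strand): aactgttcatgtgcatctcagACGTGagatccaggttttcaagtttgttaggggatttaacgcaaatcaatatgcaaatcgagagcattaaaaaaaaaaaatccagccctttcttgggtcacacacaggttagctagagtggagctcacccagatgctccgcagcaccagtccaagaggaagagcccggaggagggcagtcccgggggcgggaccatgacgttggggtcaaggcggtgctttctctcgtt
Pgk1 (chrX:106186850-106187099, plus strand): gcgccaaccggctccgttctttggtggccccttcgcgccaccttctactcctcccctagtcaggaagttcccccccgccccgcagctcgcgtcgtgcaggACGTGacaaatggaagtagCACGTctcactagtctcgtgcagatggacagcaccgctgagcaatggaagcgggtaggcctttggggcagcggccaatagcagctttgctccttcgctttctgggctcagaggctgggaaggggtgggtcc

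The letters ACGTG stood on either strand in the 250-base windows of 10 of the 18 called members with a RefSeq promoter, of 1 of 7 members that were not called, and of 16.5% of all 27025 promoters (4461). The called members were chosen by their change, and the list was drawn up as genes of glycolysis and the response to low oxygen. These shares are therefore a description that tests no cause, and a match is not a binding site. Slc2a1, the glucose transporter GLUT1, read 567 to 682 (median 613) scaled CPM in tumor 1 and 206 to 314 (median 219) in tumor 2. It fell by 1.39 ± 0.088 (adjusted p = 2.50e-09), although library 3 of tumor 2 stood above the other 5 of that tumor. Slc16a3, which exports lactate, read 540.2 to 637 (median 615) and 338 to 405 (median 384) and fell by 0.67 ± 0.059. Bnip3, a mitophagy receptor, fell by 0.92 ± 0.083 and Egln3, the oxygen sensor that marks HIF for breakdown, by 0.89 ± 0.084. Ero1l, the oxidase of the endoplasmic reticulum that folds proteins under low oxygen, had the largest fall of the list, from 467 to 653 (median 608) to 184 to 220.3 (median 194) (-1.58 ± 0.077, adjusted p = 4.11e-11). Ndrg1, a stress gene, fell by 1.29 ± 0.080. Enzymes of glycolysis moved less than the transporter. Gpi1, Aldoa, Pgk1, Pkm and Ldha fell by 0.86 ± 0.043, 0.62 ± 0.039, 0.63 ± 0.064, 0.38 ± 0.026 and 0.36 ± 0.039, in the order of the names. Hif1a, the oxygen-regulated subunit itself, fell from 238 to 321 (median 284) to 173 to 191 (median 182) (-0.64 ± 0.073). Vegfa, the vascular growth factor, changed by -0.17 ± 0.14 and was not called, though without libraries 1 to 3 of tumor 1 it was (-0.43, adjusted p = 0.000882).

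Genes of the tissue-remodelling and lipid-storing tumor macrophage fell with them. Arg1, the arginase that HIF-1 and interleukin 4 both induce (ENSMUSG00000019987, chromosome 10, 24915221 to 24927484 of GRCm38), read 3606, 3499, 3622, 3571, 3530.5 and 3459 scaled CPM in tumor 1 libraries 1 to 6 and 1709.6, 1547, 1629, 1671, 1587 and 1631 in tumor 2. Its level was 2.18 times as high in tumor 1 (-1.12 ± 0.031, adjusted p = 7.11e-15), with no overlap. Of 19 matrix and matrix protease genes 9 fell, and all calls were in this direction (median -0.29; 8 without libraries 1 to 3 of tumor 1). Mmp12, the macrophage elastase, fell by 1.42 ± 0.058, from 704 to 845 (median 738) to 259.9 to 292 (median 284). Mmp13, a collagenase, fell by 1.09 ± 0.079, Thbs1, which encodes thrombospondin, by 1.15 ± 0.056, Adam8, a membrane protease, by 0.83 ± 0.057 and Spp1, which encodes osteopontin, by 0.68 ± 0.033. Among 18 genes of lipid-associated macrophages 8 fell and 4 rose (median -0.21; 8 and 3 without libraries 1 to 3 of tumor 1). Plin2, the coat of lipid droplets, fell by 1.06 ± 0.052, Lgals3, which encodes galectin 3, by 0.63 ± 0.036, Cd9, a tetraspanin, by 0.58 ± 0.085 and Fabp5, a fatty acid binding protein, by 0.54 ± 0.093. Hilpda, an inhibitor of lipid droplet breakdown that low oxygen induces, fell by 1.04 ± 0.058. The 4 that rose were Apoe, Ctsb, Cd63 and Trem2. Trem2, the lipid receptor of these macrophages, rose by 0.22 ± 0.053 (adjusted p = 0.0311) and lost its call in 8 of 12 fits without 1 library, with changes from 0.20 to 0.25.

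Iron storage and antioxidant genes fell in 7 of 18 members and all calls were in this direction (median -0.16; 7 without libraries 1 to 3 of tumor 1). Fth1, the heavy chain of the iron store ferritin (ENSMUSG00000024661, chromosome 19, 9980598 to 9985098 of GRCm38), stood at 31062 to 32050.1 (median 31382) scaled CPM in tumor 1 and 13906 to 14318 (median 14031) in tumor 2. It fell by 1.16 ± 0.012 (adjusted p = 5.61e-22), and the light chain Ftl1 by 0.50 ± 0.017, from 24345 to 25922 (median 25052) to 17334 to 18067 (median 17836). Neither chain overlapped between tumors. Ferritin, ribosomal protein and glycolytic genes have many processed copies in the genome, so their counts are uncertain where reads could be split. Prdx1, a peroxidase, fell by 0.85 ± 0.040, Hmox1, which breaks down heme, by 0.81 ± 0.073 and Blvrb, which acts on the products of heme, by 0.64 ± 0.072. Slc7a11, which imports cystine for glutathione, fell by 0.85 ± 0.10, from 509.6 to 718 (median 577) to 224 to 383 (median 339).

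Some stress chaperones were lower as well. Of 14 heat shock protein genes 5 fell and all calls were in this direction (median -0.051, the same 5 in number without libraries 1 to 3 of tumor 1). Hspa1b and Hspa1a, which encode near-identical inducible HSP70 proteins and may share reads, read 809.7 to 1059 (median 939.5) and 970.4 to 1174 (median 1113) scaled CPM in tumor 1 and 333 to 384 (median 371) and 531 to 565 (median 543) in tumor 2. They fell by 1.33 ± 0.065 and 0.99 ± 0.051, and Hsph1, Hsp90aa1 and Hspa8 by 0.69 ± 0.10, 0.40 ± 0.046 and 0.28 ± 0.037. The heat shock element (GAA, TTC and GAA, each 2 free bases apart, read on both strands) was sought in members with a RefSeq promoter window. It stood in 0 of the 3 called members that had one, in 1 of 7 of those not called and in 0.414% of all windows of that length. Of 24 genes of the unfolded protein and ATF4 response 6 fell and 2 rose (median -0.031; 5 and 1 without libraries 1 to 3 of tumor 1). Ddit4, an inhibitor of mTORC1 that low oxygen also induces, fell by 0.91 ± 0.092, and Creld2, a chaperone, by 0.59 ± 0.10. Herpud1 and Asns rose. Asns, which makes asparagine, stood at 2.21 times background and lost its call without libraries 1 to 3 of tumor 1 (0.86, adjusted p = 0.0588). Phgdh, the first enzyme of serine synthesis, rose by 1.11 ± 0.10, from 39.4 to 49.5 (median 46.5) to 81.2 to 107 (median 99.1).

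The interferon groups did not move as one. Of all genes tested 1.78% were called, of the 6399 above background 9.25% and of the 1597 well above it 24.3%. Of 30 genes of the interferon gamma response 6 fell and 1 rose (median -0.066; 5 and 2 without libraries 1 to 3 of tumor 1). Those that fell included, beside Nos2, Irf8, a transcription factor of the macrophage lineage (-0.61 ± 0.042), Gbp2, a guanylate binding protein (-0.86 ± 0.077), Cd274, which encodes PD-L1 (-0.84 ± 0.078), and Gbp4. Cd274 read 253 to 327 (median 289) scaled CPM in tumor 1 and 143 to 173 (median 167) in tumor 2, without overlap. Of 37 genes of the type I interferon response 6 rose and 1 fell (median 0.18; 5 and 1 without libraries 1 to 3 of tumor 1, and 4 and 1 scaled over all genes). Ifit3, which with its near-identical copy Ifit3b may share reads, rose by 0.52 ± 0.083, Usp18, a brake on interferon signalling, by 0.39 ± 0.079 and Bst2, which tethers viruses, by 0.25 ± 0.047. Rsad2, which encodes the antiviral enzyme viperin, fell by 0.50 ± 0.057. Ifit1 rose by 0.42 ± 0.10 and lost its call in 6 of 12 fits without 1 library, with changes from 0.37 to 0.49. Bst2 did not pass without libraries 1 to 3 of tumor 1 (0.21, adjusted p = 0.0709).

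Presentation on MHC class II fell in 4 of 11 genes, and all calls were in this direction (median -0.23; 4 without libraries 1 to 3 of tumor 1). H2-Ab1 and H2-Aa, the chains of I-A, fell by 0.31 ± 0.023 and 0.34 ± 0.037, H2-Eb1, the beta chain of I-E, by 0.41 ± 0.028 and Cd74, the invariant chain, by 0.23 ± 0.017. H2-Ab1 read 7898 to 8346 (median 8028) scaled CPM in tumor 1 and 6153 to 6624 (median 6530.5) in tumor 2, a smaller change than that of Nos2. Of the 6399 genes above background 5.08% were called lower, and of the 1597 well above it 14.5%. Of 18 genes of MHC class I presentation Tap2 and Psme2 fell, by 0.24 ± 0.058 and 0.24 ± 0.058. Their calls were lost in 9 and 11 of 12 fits without 1 library, with changes from -0.27 to -0.22 and from -0.27 to -0.20. From 18 genes for checkpoint ligands or regulators, 4 were lower and 1 was higher in tumor 2. Beside Cd274 these were Adora2b, the low-affinity adenosine receptor (-0.78 ± 0.15), Pirb, an inhibitory receptor for MHC class I (-0.35 ± 0.070), Cd86, a costimulatory ligand (-0.30 ± 0.070), and Sirpa, the receptor for CD47, which rose by 0.20 ± 0.050. Cd86 and Sirpa lost their calls in 8 and 10 of the 12 fits, with changes from -0.33 to -0.25 and from 0.17 to 0.23, and 3 fell and 0 rose without libraries 1 to 3 of tumor 1.

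Genes of resident and mature macrophages rose in tumor 2. Of 18 on this list 10 rose and 1 fell (median 0.23; 10 and 1 without libraries 1 to 3 of tumor 1, and 8 and 1 scaled over all genes). The C1q chains C1qa, C1qb and C1qc, which start the classical complement pathway, rose by 0.28 ± 0.020, 0.22 ± 0.019 and 0.16 ± 0.025. C1qc did not pass scaled over all genes (0.12, adjusted p = 0.151). C1qa read 6022 to 6285 (median 6189) scaled CPM in tumor 1 and 7397 to 7638 (median 7482) in tumor 2. The change was small, and the libraries of the tumors were apart. Mrc1, the mannose receptor CD206, rose from 188 to 303 (median 242) to 339 to 384 (median 359.7) (0.58 ± 0.10), Gas6, which bridges dying cells to MERTK, by 0.87 ± 0.13, and Selenop, which carries selenium, by 0.44 ± 0.068. Cbr2, a carbonyl reductase of resident macrophages, rose by 1.13 ± 0.20 and Stab1, a scavenger receptor, by 0.38 ± 0.049. Pf4, a chemokine of platelets and some tissue macrophages, was the gene that fell (-0.70 ± 0.055).

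Apoe, the lipid carrier that macrophages secrete (ENSMUSG00000002985, chromosome 7, 19696109 to 19699188 of GRCm38), rose from 38505 to 39837 (median 39581) scaled CPM to 62840.3 to 64723 (median 64048). Its log2 change was 0.70 ± 0.010 (adjusted p = 1.25e-19), with every tumor 2 library above every tumor 1 library. Apoc2, the cofactor of lipoprotein lipase, rose by 0.45 ± 0.070, and these were the 2 called genes of 13 on cholesterol efflux and LXR targets. Fcrls, an Fc receptor-like gene of resident macrophages and microglia, read 158, 161, 184, 186, 185 and 194 in tumor 1 libraries 1 to 6 and 578, 509.5, 486, 552, 574 and 556 in those of tumor 2. Its level was 3.04 times as high in tumor 2 (1.60 ± 0.069, adjusted p = 6.86e-12). Among 16 alternative activation genes 3 rose, which were Fcrls, Egr2 and Mrc1, and 3 fell, which were Arg1, Tgm2 and Il4ra (3 and 2 without libraries 1 to 3 of tumor 1). Tgm2, a transglutaminase, fell by 0.51 ± 0.037, while Egr2, a transcription factor induced by interleukin 4, rose by 0.60 ± 0.066. Of 18 monocyte genes Cx3cr1, the fractalkine receptor, and Ly6c2 rose, by 0.53 ± 0.072 and 0.50 ± 0.081. Of 25 lysosome genes 6 rose and 2 fell, against 9.25% called of the 6399 genes above background and 24.3% of the 1597 well above it. The proteases Ctsb and Ctss were higher by 0.23 ± 0.023 and 0.23 ± 0.023 and Ctsl lower by 0.64 ± 0.042. Gpr84, a receptor for medium-chain fatty acids, rose by 1.09 ± 0.089 and Tnfsf9, the ligand of the costimulatory receptor 4-1BB, by 1.13 ± 0.052, from 372 to 431 (median 391) to 809 to 907 (median 857).

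Immediate early genes, which are induced within minutes of a stimulus and also by tissue digestion, rose in 10 of 22 and fell in 3 (median 0.38; 11 and 3 without libraries 1 to 3 of tumor 1, 9 and 2 scaled over all genes). Egr1, a zinc finger transcription factor, read 477 to 708 (median 666) scaled CPM in tumor 1 and 1836 to 2109.9 (median 1963) in tumor 2, and rose by 1.62 ± 0.074 (adjusted p = 2.00e-11). Ier2 read 2234, 2287, 2251, 2160.3, 2248 and 2209 in tumor 1 libraries 1 to 6 and 4147, 4262, 4349, 4136, 4183 and 4098 in tumor 2, a rise of 0.91 ± 0.027. Both were apart between tumors in every library, which for Egr1 the rule for the largest changes required. The AP-1 genes Fos, Fosb and Jun rose by 0.36 ± 0.026, 0.53 ± 0.053 and 0.57 ± 0.12, Nr4a1, an orphan nuclear receptor, by 0.70 ± 0.040 and Btg2, a brake on the cell cycle, by 0.72 ± 0.041. Jun did not pass when scaled over all genes (0.53, adjusted p = 0.0578). Ier3, Klf6 and Atf3 were the 3 that fell. Dusp1, a phosphatase of MAP kinases, read 878 to 3215 (median 2831) in tumor 1 and 3516 to 4255 (median 4024) in tumor 2 and was not called (0.69 ± 0.20); it passed without tumor 1 library 1 (0.51, adjusted p = 0.00769) and without libraries 1 to 3 (0.33). Of the called risers 8 had a RefSeq promoter window. The letters TGACGTCA of the CRE stood in 1 of these 8, which was Btg2, and in 1.6% of all windows of that length. The AP-1 letters TGANTCA stood in 0 of the 8 and in 6.83% of all. The part of digestion was not tested.

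Genes of dividing cells rose. Of 28 cell cycle genes 15 rose and all calls were in this direction (median 0.40; 12 without libraries 1 to 3 of tumor 1). Stmn1, a tubulin regulator, read 194 to 283 (median 256) scaled CPM in tumor 1 and 408 to 439.6 (median 415) in tumor 2 (0.75 ± 0.074). Mki67, which encodes the Ki-67 antigen, rose by 0.71 ± 0.093, Top2a, the topoisomerase of mitosis, by 0.46 ± 0.063, Rrm2, a subunit of ribonucleotide reductase, by 0.87 ± 0.13 and Ube2c, a mitotic ubiquitin enzyme, by 0.79 ± 0.14. The libraries of the tumors did not overlap for 13 of the 28, among them Stmn1, Mki67, Top2a, Rrm2 and Ube2c. The genes named here were picked as called members, which favours such separation. Hist1h2an and Hist1h2ap, replication histones with near-identical copies that may share reads, rose by 1.04 ± 0.14 and 0.98 ± 0.065.

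Mitochondrially encoded transcripts took 0.355% ± 0.00403 of the counts in tumor 1 and 0.414% ± 0.0110 in tumor 2 (adjusted p = 0.00433, exact permutation test). Of 13 such genes 10 rose and all calls were in this direction (median 0.32; 10 without libraries 1 to 3 of tumor 1), with mt-Co1 higher by 0.32 ± 0.027 and mt-Cytb by 0.49 ± 0.043. Of 78 ribosomal protein genes 8 rose (median 0.10), but 5 without libraries 1 to 3 of tumor 1 and 2 scaled over all genes. Of the 6399 genes above background 4.17% were called higher, and of the 1597 well above it 9.83%. Malat1, a long RNA kept in the nucleus, fell from 17590.00 to 18397 (median 17827) to 9567 to 10717 (median 10317) (-0.80 ± 0.023, adjusted p = 9.23e-15), and Neat1, another nuclear RNA, by 0.57 ± 0.044. Mitochondrial, ribosomal and nuclear transcripts can also move with the state of the RNA, and their part in the changes above was not tested. Of 31 nuclear-encoded genes of the respiratory chain Atp5a1 alone was called (0.25 ± 0.051), and it lost its call without libraries 1 to 3 of tumor 1 (adjusted p = 0.0682).

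**Figure D4:**
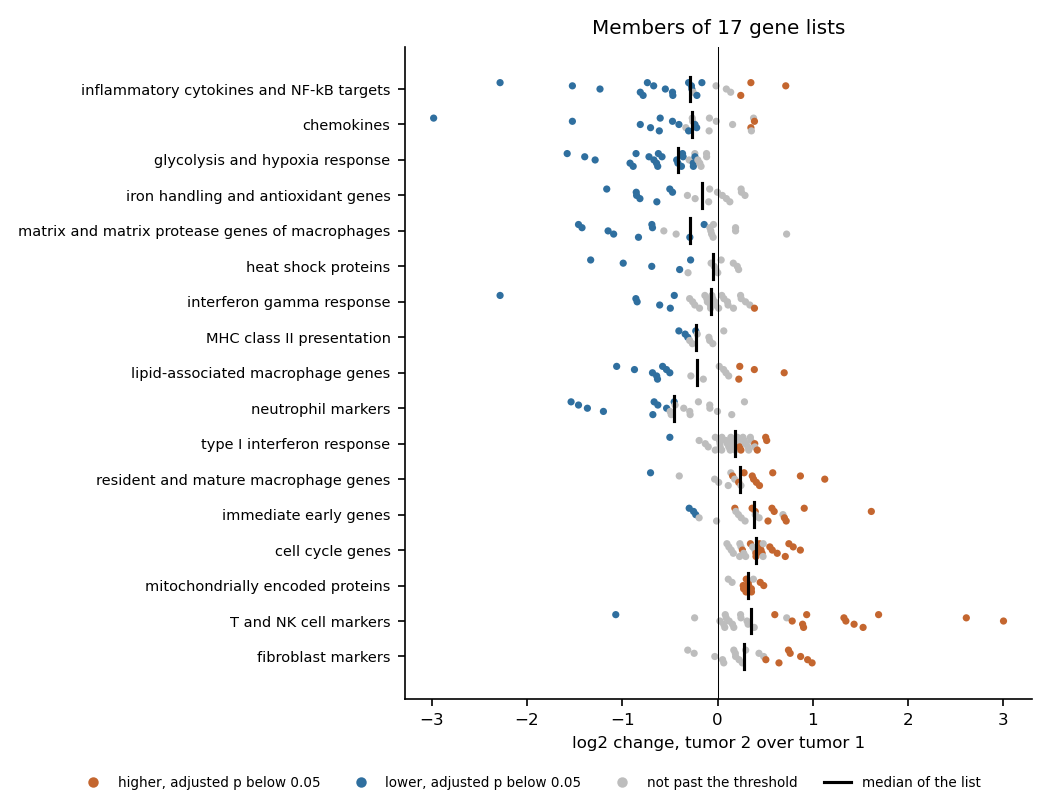
The log2 change of tumor 2 over tumor 1 (horizontal axis) of every tested member of 17 gene lists. Orange points were called higher, blue lower and grey not called, and black bars are list medians, which run from -0.45 for neutrophil markers to 0.40 for cell cycle genes.

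Transcripts of T and NK cells, which the gate for CD11b and F4/80 selects against, rose in tumor 2. Of 28 markers 12 rose and 1 fell (median 0.35; 12 and 1 without libraries 1 to 3 of tumor 1). In the mean of the tumors 6 of the 28 lay at 3 or more times background. Of all genes tested 0.909% were called higher. Summed over the list, the markers read 783 to 949.7 (median 868) scaled CPM in tumor 1 and 1225 to 1301 (median 1262) in tumor 2, over an expected background of 515 and 528. Nkg7, a granule protein of NK cells and CD8 T cells (ENSMUSG00000004612, chromosome 7, 43437073 to 43438249 of GRCm38), read 21.1, 18.7, 12.1, 7.94, 4.35 and 3.50 scaled CPM in tumor 1 libraries 1 to 6 and 77.9, 80.7, 81.3, 89.1, 87.0 and 95.9 in those of tumor 2. Background of 5.06 and 5.19 was expected, and the level was 8.02 times as high in tumor 2 (3.00 ± 0.30, adjusted p = 1.57e-06). Trbc2, a constant segment of the T cell receptor beta chain, read 2.42 to 7.95 (median 5.91) and 28.7 to 44.1 (median 34.1) over an expected 3.83 and 3.93, and rose by 2.61 ± 0.22. Trac, the constant segment of the alpha chain, which was not on this list, rose by 1.86 ± 0.17. In tumor 1 these 3 genes came close to background in some libraries, and in tumor 2 all 6 libraries stood clear of it.

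Several genes of cytotoxic lymphocytes rose. Gzmb, the protease granzyme B, rose from 12.2 to 19.6 (median 15.2) scaled CPM to 37.9 to 45.3 (median 43.2) (1.43 ± 0.14). Cd8a and Cd8b1, the chains of CD8, read 8.17 to 29.8 (median 13.2) and 7.81 to 26.7 (median 20.8) in tumor 1 and 37.4 to 52.4 (median 48.3) and 41.9 to 56.1 (median 47.7) in tumor 2, and rose by 1.53 ± 0.23 and 1.33 ± 0.21. With expected background subtracted Cd8b1 did not pass (2.19, adjusted p = 0.155). Il2rb, a subunit of the interleukin 2 and 15 receptors, rose by 1.69 ± 0.16 and Lck, the kinase of the T cell receptor, by 0.78 ± 0.12. Ifng, which encodes interferon gamma, rose by 1.35 ± 0.26, where 7.17 and 7.36 scaled CPM of background were expected in tumors 1 and 2. Pdcd1, which encodes PD-1 and was not on the list of markers, rose by 0.92 ± 0.14. Cd3g, a chain of the CD3 complex, rose by 0.94 ± 0.13. Prf1, which encodes perforin, was not called (0.39 ± 0.13). Cd3e, Cd4 and Ncr1, an NK receptor, lay at 1.55, 1.30 and 1.19 times background and were not called (0.081 ± 0.18, 0.16 ± 0.20 and 0.065 ± 0.20). Il7r, the interleukin 7 receptor, was the marker that fell (-1.07 ± 0.12). Ccl5, which T and NK cells also make, fell as given above.

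Some fibroblast transcripts rose. Of 20 fibroblast markers 7 rose and all calls were in this direction (median 0.28; 5 without libraries 1 to 3 of tumor 1 and 4 with expected background subtracted). In the mean of the tumors 15 of the 20 lay below 3 times background, and 4 of the 7 called markers lay at 3 times or more. Of all genes tested 0.909% were called higher, and of the 6399 above background 4.17%. The sum of the fibroblast markers was 959 to 1155 (median 1098) scaled CPM in tumor 1 and 1508 to 1554 (median 1540.2) in tumor 2, over an expected 605 and 621. Sparc, a collagen-binding matrix protein, read 82.7 to 117 (median 102) and 165 to 221 (median 204) (0.99 ± 0.093), Dcn, which encodes decorin, rose by 0.95 ± 0.091, and Col3a1, a collagen chain, from 92.6 to 139 (median 126) to 216 to 246 (median 221) (0.87 ± 0.089). Libraries of the tumors were apart for these 3, which for Sparc the rule for the largest changes required. Of 9 mesothelial markers 2 rose, Msln and Krt19, which is also on the colon epithelium list (median 0.045; 0 without libraries 1 to 3 of tumor 1). Only 1 of these 2, Krt19, lay at 3 or more times background. Msln, a marker of the mesothelium, rose by 0.96 ± 0.20 but not without libraries 1 to 3 of tumor 1 (0.75, adjusted p = 0.188). Of 28 colon epithelium markers Krt19, a keratin, and Spink4, a goblet cell protein, rose by 0.56 ± 0.10 and 0.65 ± 0.13. Neither was called without libraries 1 to 3 of tumor 1 (adjusted p = 0.0511 and 0.0921). Krt8 and Epcam, the carcinoma markers of this list, changed by 0.36 ± 0.11 and 0.43 ± 0.11 and did not pass in the test over all genes.

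**Figure D5:**
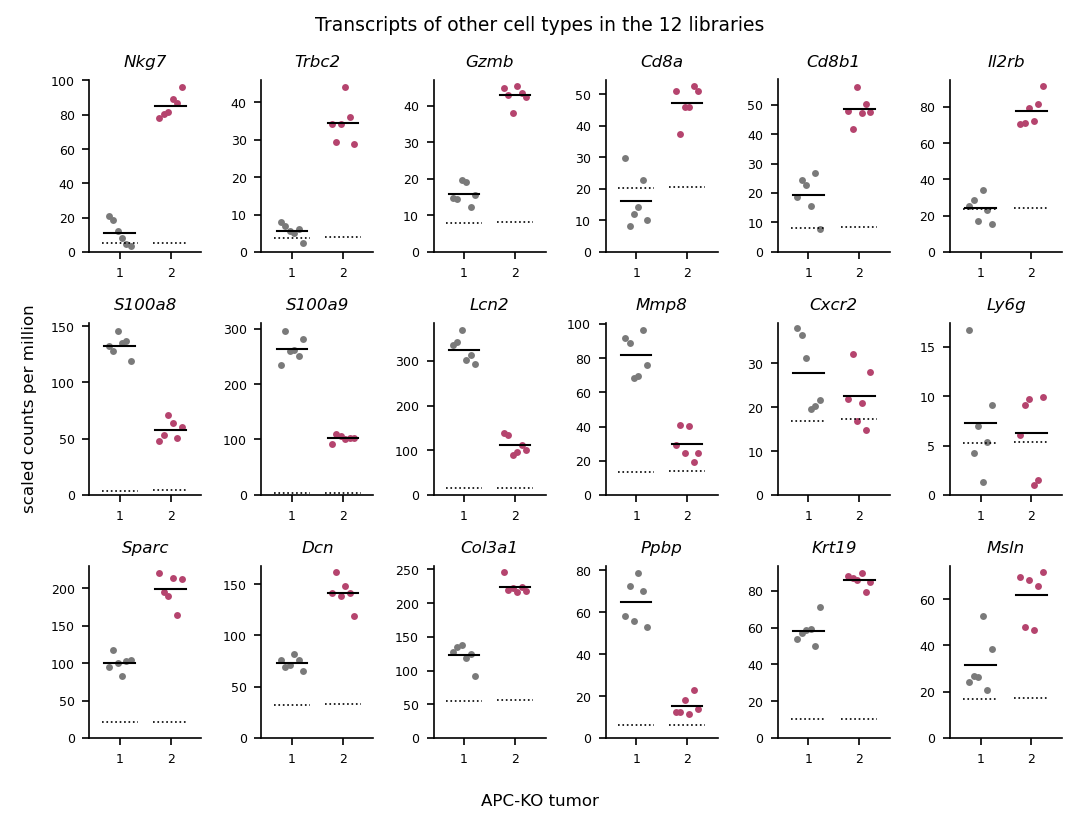
Levels of 18 transcripts of other cell types in scaled CPM (linear axes from 0) in the 6 libraries of tumor 1 (grey) and tumor 2 (red); bars are means and dotted lines the expected background. The T and NK cell genes of the first row are higher in tumor 2, S100a8, S100a9, Lcn2 and Mmp8 are lower, and Cxcr2 and Ly6g overlap near background. All 18 were picked for display, and those of the first row are called risers, so their separation reflects the choice. Among the 28 T and NK cell markers 12 rose, 1 fell and 15 were not called.

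Ppbp, a chemokine of platelets and some macrophages, fell from 52.8 to 78.7 (median 64.0) to 11.4 to 22.8 (median 13.2) scaled CPM (-2.10 ± 0.17). With Pf4 it was one of the 2 called genes among 10 platelet markers. Dendritic cell markers had 1 call of 18, Naaa at -0.41 ± 0.10, which was lost in 5 of 12 fits without 1 library, with changes from -0.47 to -0.36. By edgeR no gene was called among 15 B and plasma cell markers (4 at an unadjusted p under 0.05; 1 by DESeq2 and 0 by limma-voom) or 10 smooth muscle markers (3; 1 and 0). The same held for 13 mast cell, basophil and eosinophil markers (1; 0 and 0), 16 endothelial (1; 0 and 0) and 11 erythroid markers (3; 0 and 0). Igkc, the immunoglobulin kappa constant segment, changed by -0.50 ± 0.13 (adjusted p = 0.0641). Of 6 sex-linked genes none was called by edgeR (1 at an unadjusted p under 0.05; 0 by DESeq2 and 0 by limma-voom). Xist lay at 0.681 times background and the Y-linked Ddx3y and Eif2s3y at 5.08 and 3.36 times in the mean of the tumors.

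Apc, Tdo2, Ido1 and Ahr, which the series is about, were not called here. Apc read 123 to 163 (median 156) scaled CPM in tumor 1 and 137 to 163 (median 148) in tumor 2 over an expected background of 89.3 and 91.6 (-0.017 ± 0.083), which does not check the labels, since the macrophages come from the host. Tdo2, which opens the tryptophan ring, lay at 1.01 times background (0.073 ± 0.16), and Ido1, the other such enzyme, at 1.32 times (-0.028 ± 0.22). Ahr, the receptor that kynurenine binds, and its target Tiparp changed by -0.050 ± 0.10 and 0.041 ± 0.10, and none of these 5 genes was called. Of 22 genes of this receptor and of tryptophan use, 16 lay below 3 times background. In this list Slc3a2 and Slc7a8, subunits of amino acid transporters, fell by 0.28 ± 0.051 and 0.46 ± 0.10. Slc7a8 lost its call in 4 of 12 fits without 1 library, with changes from -0.52 to -0.41. Of 16 Wnt target genes Cd44, an adhesion receptor, fell by 0.52 ± 0.059 and Myc, a transcription factor of growth, rose by 0.36 ± 0.087. The call of Myc was lost in 8 of the 12 fits, with changes from 0.33 to 0.40. In the Wnt list 11 genes lay below 3 times background. The few calls of both lists stand against 1.78% called of all genes tested and 9.25% of the 6399 above background.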

How the data were processed

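Raw counts of 55487 Ensembl genes, not normalized, were deposited by the authors for 24 libraries, of which the 12 of APC-KO tumors 1 and 2 entered the fit. HISAT2, StringTie, bcl2fastq 2.20.0 and the build mm9 are named in the submitters' processing notes, with roles, settings and strand not given in the sources used here. Without strand, reads of a gene and an antisense partner cannot be told apart. Symbols, lengths and positions came from GENCODE M21 (GRCm38) by gene ID (55141 matched), and coordinates are of GRCm38, not of the build in the notes.

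Counts were tested by edgeR 4.0.16 in R 4.3.3 (quasi-likelihood test, filterByExpr, 41257 genes, Benjamini-Hochberg adjustment over all of them at 0.05), with a mean per tumor. The library size was the TMM-scaled total of the 1597 genes well above background. Background per kb of exon came from 1972 receptor genes (1407 Olfr and 565 Vmn), and 12 satellite-like loci were left out of the scaling. SE was taken as the log2 change over the root of the F statistic. Shares of counts were compared by an exact permutation test over libraries. Intervals of counting error are not given, since libraries of a tumor differed by more than counting error and none was a copy of another. Alternatives used limma 3.58.1, DESeq2 1.42.0 and further settings. Figures were drawn in Python 3.11.15 with matplotlib 3.10.9.

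The tumors compared, the 43 gene lists (812 genes tested) and the tests were chosen with earlier results of these data known. Named genes were the 12 each way with the largest log2 change among those past the threshold, at 3 or more times background and 20 scaled CPM in the higher tumor, without overlap of libraries, leaving out genes without a symbol, gene models, pseudogenes and receptor segments. Further named genes were up to 5 called members of each list with the smallest p, 9 genes always, and others after their values were seen. The last group was in part to show members of the lists, but Trac and Pdcd1 were not on the list of T and NK cell markers. In simulated counts (40384 genes passing the filter) the changed genes were drawn only from those at 3 or more times background and 10 CPM or more. The test recovered 58% of 100 such genes changed by 0.5 and 99% of 100 changed by 1 on the log2 scale, with 10 false calls (0.0249%). Recovery of changes in genes at lower levels was not simulated. Some genes of the lists are not reported here.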

Additional observations from a re-analysis of the deposited data

Results flagged for a closer look

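In 25 of 454 sets of 6 libraries the highest or lowest library stood apart from the other 5 by a share of the range above Dixon's 95% critical value, and chance alone gives about 1 in 20. All values are scaled CPM. In tumor 1, library 1 was high for Irf8 (1701) and Irf7 (1288) and low for Egr1 (477) and Tiparp (137). Library 2 was high for Cd9 (431), and library 3 was high for Rsad2 (549) and low for Ahr (62.5). Library 4 was low for Rpl4 (583), and library 5 was high for Cebpb (5685) and Prdx1 (1730.1). In tumor 2, library 1 was high for Tgm2 (1775), Adgre1 (473), Ctsb (7115), Stmn1 (439.6), Col3a1 (246) and Ldha (2183). Library 2 was low for H2-Ab1 (6153), and library 3 was high for Slc2a1 (314). Library 4 was high for Cxcl3 (542) and Ppp1r15a (1379), and library 5 was high for Hdc (206). Library 6 was high for Fth1 (14318) and Cebpb (1904) and low for Slc7a11 (224) and Cd86 (259.7). Fth1 ranged from 13906 to 14318 in tumor 2, so a gap of this kind can be small beside the level. Fth1, Prdx1, Tgm2, Ctsb, Slc2a1, Cxcl3, Egr1, Col3a1 and Stmn1 kept their calls in all 12 fits that left out 1 library.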

How the results depend on the processing

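The number of genes higher in tumor 2 was 622 by DESeq2 and 1117 with all 24 libraries in the fit, against 375. With an offset for GC content, chosen after seeing the data and fitted to the 6399 genes above background alone, 365 were higher and 550 lower, against 510 and 459 in a test of those genes without the offset and 360 lower over all genes. Leaving out each of the 12 libraries in turn gave 309 to 369 higher and 308 to 363 lower genes. Scaling by TMM over all genes gave 266 higher and 404 lower, so that 39.7% of calls were higher against 51%, and moved the median gene well above background from 0.01 to -0.03. The other settings stayed within 1.5 times of both counts. They were limma-voom, DESeq2 size factors, scaling by genes at 3 times background, no filter, a transcript length offset (1597 genes tested), subtraction of expected background, and, chosen after seeing the data, tests of only the genes above background and libraries 1 to 3 of tumor 1 left out. The share of counts in satellite-like loci differed by 0.646 percentage points and passed without tumor 2 replicate 3 (0.913, adjusted p = 0.0115, exact permutation test), and over all 12 such fits the difference lay between 0.476 and 0.913. No named gene that was called changed sign under any of these settings, while 18 that were not called did, among them Cebpb (0.52 without tumor 1 library 5), Jund (0.34 with background subtracted) and Klf2 (-0.45 without libraries 1 to 3 of tumor 1). Of 43 list medians 16 changed sign under some setting, all of them within 0.078 of 0 as reported, and 72 of 1092 recomputed medians moved by the SD between libraries or more, 55 of these in tests of fewer genes. Among 223 named genes, 166 fits lost a call and 39 gained one. With the replicate number as a block, 277 genes were higher and 294 lower, and 553 calls were shared with the fit without it. Same-numbered libraries deviated together at correlations from -0.208 to 0.216 and 1 of 6 correlated best with its own number, so no pairing by number was seen. The labels do not say whether same-numbered libraries were handled together, and these correlations cannot settle it. Background limits lists of genes at low levels, and changes of such genes on the printed scale contain it.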
